A study of Saccharomyces cerevisiae with 4 samples.

Results

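Calcineurin and the calcium transport genes of budding yeast were examined as a set of 10 genes on 4 one-colour Affymetrix arrays. The genes were chosen by name: CNA1, CMP2, CNB1, CRZ1, RCN1, MID1, CCH1, PMC1, VCX1 and PMR1. The platform annotation gave each of them 1 probe set, a group of array probes read as one signal. All 10 were called present on both arrays that had usable detection calls, so the filter on dim probe sets removed none of them. They were 10 of 5330 S. cerevisiae genes tested, which had 5376 probe sets. Of the arrays, 2 carried RNA of the SSG1-1 mutant, a long-lived strain, and 2 carried RNA of its wild type W303-1A, a common laboratory strain. Cultures of both strains were first held in rich medium at 25 °C and then taken through 12 h in SDC, a synthetic medium, set to pH 6.0, and were in early-log phase with 2000000 cells per ml at RNA extraction. Which gene the SSG1-1 mutation lies in is not stated. Nothing in the labels tells whether each strain's pair of arrays stood for separate cultures, so p-values reflect the spread among 4 arrays and that spread may be technical.

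Calcineurin is a protein phosphatase that calcium and calmodulin switch on. In yeast it removes phosphate from the transcription factor Crz1, which then enters the nucleus and induces genes for calcium pumps, cell wall synthesis and ion tolerance. Calcium enters the cytosol through a plasma membrane channel and is cleared into the vacuole and the Golgi by pumps and an exchanger, some of which calcineurin controls in turn. The comparison of mutant with wild type asked how expression differs in a long-lived strain.

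The limma test with Benjamini-Hochberg adjustment called 1 of 5376 probe sets higher in the mutant (0.0186%), which was that of HRI1, and 0 lower. At an unadjusted p under 0.05 it gave 2.72% of probe sets higher and 1.8% lower. The 2 strains did not overlap for 14% of all probe sets with the mutant higher and for 18% with the mutant lower. The median log2 difference over all probe sets was -0.02, and -0.15 in the values as deposited. Median deposited signals of S. cerevisiae probe sets were 874 and 1084 in the mutant and 1171 and 1012 in the wild type, while those for a different yeast species had medians between 4.8 and 5.3. Markers of a cells, the mating type of W303-1A, had median signals of 6405 and 5603 in the mutant and 5191 and 6511 in the wild type. Those of alpha cells had medians of 68.4 and 90.7 in the mutant and 59.0 and 77.2 in the wild type. SAG1, 1 of these 4 alpha markers, was brighter, at 878 and 961 in the mutant and 758 and 1236 in the wild type. Of the 6 a-cell markers, 0 were higher and 3 (STE2, STE6 and AGA2) lower on both mutant arrays. These counts stand beside the 14% and 18% of all probe sets. After median centring STE2 and STE6 overlapped between the strains. Sporulation markers had medians of 178 and 167 in the mutant and 151 and 172 in the wild type. None of these marker genes passed the adjusted threshold.

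None of the 10 calcineurin and calcium transport genes passed the adjusted threshold, and each had an adjusted p of 0.998. Their log2 differences, mutant minus wild type, ran from -0.24 for VCX1 to 0.16 for CRZ1, with a median of -0.05. They were above 0 for 4 genes and below 0 for 6, beside 45.9% of all probe sets above 0. The median size of the difference was 0.06, beside 0.11 for all tested probe sets. VCX1 alone of the 10 had an unadjusted limma p under 0.05, beside 4.52% of all probe sets. Both mutant arrays lay below both wild-type arrays for 3 genes, CNB1, CCH1 and VCX1, beside 18% of all probe sets. They lay above for 0, beside 14%. The 7 other genes overlapped between the strains. In the values as deposited 2 genes were lower, CNB1 and VCX1 (22.3% of all probe sets). After median centring there were 2, CNB1 and CCH1 (15%). A share of 3 in 10 rests on few genes, and nothing was tested over the set. Because RNA came from whole cultures, a lower signal from fewer cells that express a gene and from less RNA per cell cannot be told apart.

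**Figure D1:**
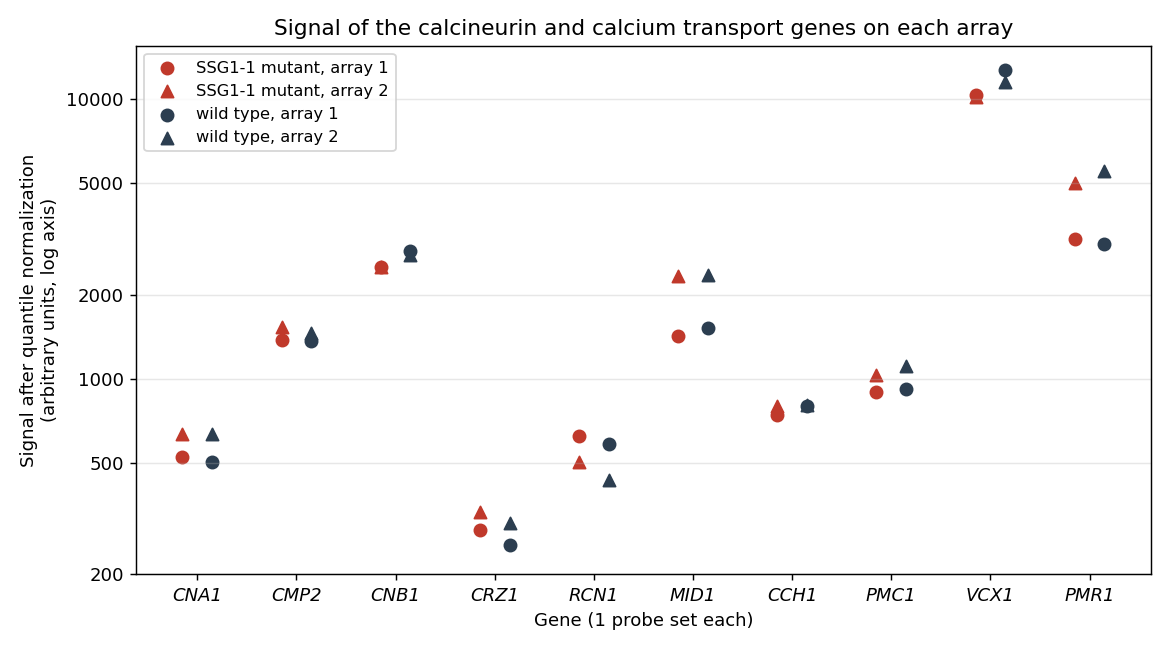
Signal of each gene on each array after quantile normalization, in arbitrary units on a log axis, with SSG1-1 mutant arrays in red at the left and wild-type arrays in dark blue at the right of each gene, circles for arrays numbered 1 and triangles for arrays numbered 2. Circles and triangles of MID1 and PMR1 stand well apart within both strains, while the mutant and wild-type points of the same number lie close together.

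The catalytic subunit of calcineurin is encoded by CNA1 and CMP2, which can replace each other. CNA1 (YLR433C) had normalized signals of 524 and 635 on the mutant arrays numbered 1 and 2, against 505 and 634 on the wild-type arrays in the same order. Both strains spanned nearly the same range, and the log2 difference was 0.03 ± 0.19 (SE, n = 2 per strain). CMP2 (YML057W) had 1380 and 1535 in the mutant and 1368 and 1457 in the wild type. Its strains overlapped as well, with a log2 difference of 0.04 ± 0.14. The signs of both genes depended on the scaling: with the values as deposited, the differences were -0.14 for CNA1 and -0.12 for CMP2, close to the shift of all genes.

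CNB1 (YKL190W) encodes the regulatory subunit, which binds calcium and without which neither catalytic subunit is active. Its signals were 2514 and 2506 in the mutant, against 2865 and 2765 in the wild type. Both mutant arrays lay below both wild-type arrays under every scaling tried. The mutant arrays differed by 0.0045 on the log2 scale and the wild-type arrays by 0.05. The log2 difference between strains was -0.17 ± 0.11 (SE), with a 95% interval from -0.45 to 0.12, and it had the same sign within number 1 (-0.19) and within number 2 (-0.14). The limma unadjusted p was 0.192, so the difference did not pass even before adjustment.

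CRZ1 (YNL027W), the transcription factor that calcineurin activates, had signals of 287 and 335 in the mutant and 253 and 305 in the wild type. The mutant array was the higher of each same-numbered pair, though not within number 1 as deposited (236 against 281), and the strains overlapped. Over both pairs the log2 difference was 0.16 ± 0.19 (SE). Number 1 alone gave 0.18 and number 2 alone 0.13. RCN1 (YKL159C) encodes a regulator that binds calcineurin and is itself induced through Crz1. It had 626 and 505 in the mutant and 587 and 434 in the wild type. Here too the mutant array was the higher of each pair, though not within number 1 as deposited (520 against 666), and the strains overlapped. Its log2 difference was 0.15 ± 0.22, and -0.0076 in the values as deposited.

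The high-affinity calcium channel of the plasma membrane is formed by Cch1, its pore subunit, and Mid1. MID1 (YNL291C) had signals of 1426 and 2336 in the mutant and 1514 and 2356 in the wild type. The high values were the arrays numbered 2 in both strains, and same-numbered arrays of the strains nearly coincided. Its log2 difference between strains was -0.05 ± 0.32 (SE). The 95% interval of the fold change, mutant over wild type, ran from 0.542 to 1.72. CCH1 (YGR217W) had 744 and 800 in the mutant, against 802 and 807 in the wild type. The mutant arrays were below the wild-type arrays by a narrow margin, and they overlapped in the values as deposited. The strains differed by -0.06 ± 0.13 on the log2 scale, number 1 alone by -0.11 and number 2 alone by -0.01.

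Calcium is taken into the vacuole by Pmc1, an ATP-driven pump, and by Vcx1, which exchanges it for protons. VCX1 (YDL128W) had the largest strain difference of the set. Its signals were 10388 and 10145 in the mutant, against 12745 and 11488 in the wild type. Both mutant arrays lay below both wild-type arrays after quantile normalization and in the values as deposited, but the strains overlapped after median centring. The mutant signal was 0.848 times that of the wild type, with a 95% interval from 0.741 to 0.972 (log2 difference -0.24 ± 0.08 SE, limma unadjusted p = 0.0264, adjusted p = 0.998). It was -0.29 within number 1 and -0.18 within number 2. By unadjusted p, VCX1 stood at rank 137 of the 5376 probe sets. With median centring the unadjusted limma p was 0.303 and the log2 difference -0.18. In the values as deposited the unadjusted limma p was 0.0464 and the log2 difference -0.33. Without the mean-variance trend, which lets limma's variances follow the signal, the unadjusted limma p was 0.105 at a log2 difference of -0.24. PMC1 (YGL006W), a gene induced through Crz1, had 898 and 1036 in the mutant and 919 and 1111 in the wild type. Its strains overlapped, with a log2 difference of -0.07 ± 0.17.

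PMR1 (YGL167C) encodes the Golgi pump for calcium and manganese. It had signals of 3171 and 4997 in the mutant and 3044 and 5534 in the wild type. As for MID1, the arrays numbered 2 were the high ones in both strains. The mutant array was the higher within number 1 (0.06 on the log2 scale) and the lower within number 2 (-0.15). In the values as deposited, PMR1 was lower in the mutant within both numbers. After quantile normalization it was the only one of the 10 genes with opposite signs within the numbers. The log2 difference was -0.04 ± 0.36 (SE), and the interval of the fold change ran from 0.515 to 1.83.

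**Figure D2:**
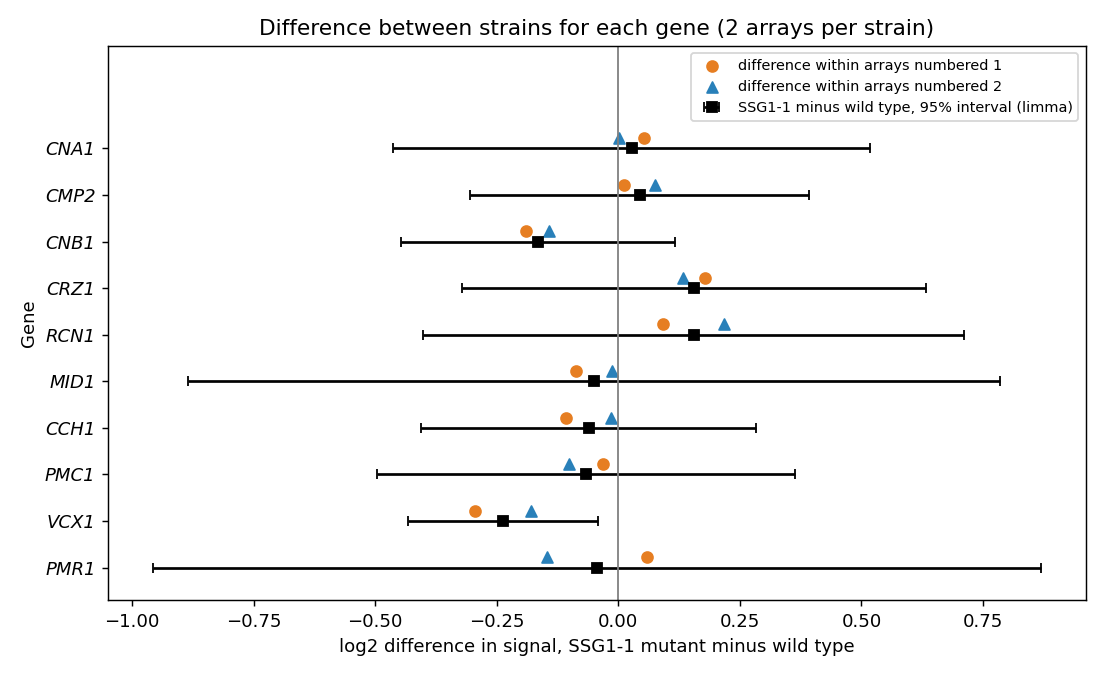
Log2 difference in signal, SSG1-1 mutant minus wild type, for each gene (black squares, with limma's 95% interval as bars, 2 arrays per strain), with the differences within arrays numbered 1 (orange circles) and numbered 2 (blue triangles) drawn just above. The interval of VCX1 (-0.43 to -0.04) is the only one that does not include 0, and those of MID1 and PMR1 are the widest.

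The intervals bound what these arrays could have shown. For all 10 genes the unadjusted 95% interval of the fold change lay within 2-fold in either direction, which held for 88.2% of all probe sets. For 6 genes, CNA1, CMP2, CNB1, CCH1, PMC1 and VCX1, it lay within 1.5-fold, beside 52.7% of all probe sets. The intervals of CRZ1, RCN1, MID1 and PMR1 were wider. A p that missed the threshold does not show that the strains were alike for any of the 10 genes. After quantile normalization, the sign of the difference was the same within both numbers for 9 of the 10 genes, beside 66.3% of all probe sets. In the values as deposited, only CNB1, VCX1 and PMR1 had the same sign within both numbers.

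The arrays' numbers separated several of these genes more than the strains did. What these numbers stand for is not in the labels. Both arrays numbered 1 lay below both numbered 2 for CNA1, CMP2, CRZ1, MID1, PMC1 and PMR1, 6 of the 10, beside 29.8% of all probe sets. The opposite held for RCN1 alone, beside 26.4% of all probe sets. In the values as deposited, CMP2 and RCN1 overlapped between the numbers. The log2 difference of number 1 minus number 2 was -0.76 for PMR1, -0.68 for MID1, -0.30 for CNA1, -0.24 for CRZ1 and for PMC1, and 0.37 for RCN1. For CNB1, VCX1 and CCH1 it was 0.03, 0.09 and -0.06, which was smaller in size than their strain differences. The strain difference was the smaller of both contrasts for the other 7 genes, beside 62.4% of all probe sets. In MID1 the mutant arrays differed from each other by 0.71 and the wild-type arrays by 0.64 on the log2 scale. In PMR1 these gaps were 0.66 and 0.86. The arrays numbered 2 were the higher ones in each of these gaps.

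**Figure D3:**
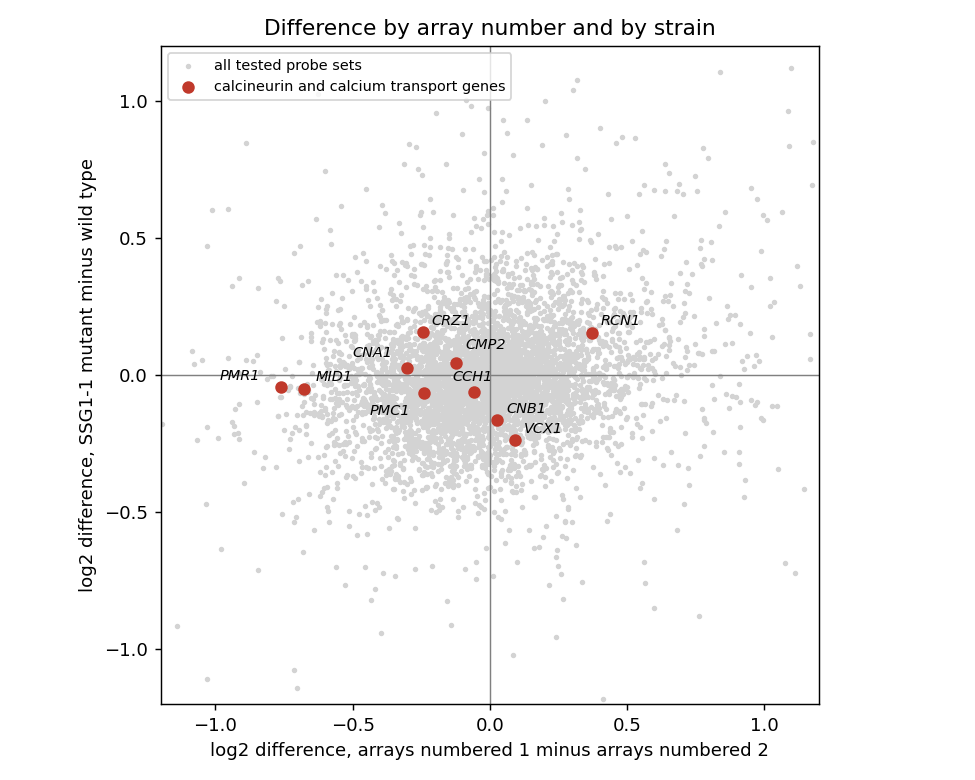
Each point is a probe set, with the log2 difference of arrays numbered 1 minus arrays numbered 2 on the horizontal axis and that of SSG1-1 mutant minus wild type on the vertical axis. The 10 calcineurin and calcium transport genes are in red and all tested probe sets in grey, of which 65 lie outside the axes. MID1 and PMR1 lie far to the left near 0 on the vertical axis, RCN1 lies to the right, and VCX1 is the lowest of the red points.

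Among other genes of the pathway, a list of calmodulin, protein kinases of several families and calcineurin regulators was measured for 12 genes. Its median log2 difference was 0.10, and 0 genes passed the adjusted threshold. The median was -0.03 in the values as deposited. Both mutant arrays were higher for 3 genes, beside 14% of all probe sets, and lower for 0, beside 18%. CMD1, which encodes calmodulin, had signals of 12680 and 12745 in the mutant and 11033 and 11759 in the wild type. The mutant arrays were above the wild-type arrays, though not in the values as deposited. The log2 difference was 0.16 ± 0.06 (SE, limma unadjusted p = 0.0543). RCK2, a kinase of the calmodulin-dependent kinase family, had no overlap either, with a log2 difference of 0.26 ± 0.14. MRK1, a homolog of glycogen synthase kinase 3, had the largest difference of the list. Its signals were 83.9 and 79.1 in the mutant and 52.7 and 52.5 in the wild type, low on these arrays (0.63 ± 0.23, limma unadjusted p = 0.0431, adjusted p = 0.998). CMK1 and CMK2, the kinases activated by calmodulin, overlapped between strains with log2 differences of 0.02 ± 0.23 and -0.33 ± 0.31. RCN2, a second gene for a calcineurin-binding protein, was at 0.08 ± 0.29. CMK1 and RCN2 were negative in the values as deposited.

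Of 13 measured genes known to be induced through calcineurin and Crz1, 0 passed the adjusted threshold, 0 were higher on both mutant arrays and 4 were lower on both, beside 14% and 18% of all probe sets. Of the list, 3 genes were lower in this way after median centring (15% of all probe sets) and 6 in the values as deposited (22.3%). The list's median difference was -0.07 on the log2 scale, with -0.06 from number 1 alone and -0.09 from number 2 alone. The lowest of the 4 was PUN1, which encodes a plasma membrane protein. It had signals of 4111 and 4072 in the mutant, against 5403 and 4658 in the wild type. The difference was -0.29 ± 0.11 (SE, limma unadjusted p = 0.0477, adjusted p = 0.998). CRH1 and UTR2, related enzymes that link chitin to glucan in the cell wall, were at -0.15 ± 0.09 and -0.11 ± 0.06, and MEP1, an ammonium permease gene, at -0.21 ± 0.12. GSC2 (also named FKS2), a glucan synthase subunit whose promoter is a standard reporter of calcineurin activity, overlapped between the strains. It had 1405 and 1160 in the mutant and 1306 and 1162 in the wild type, a log2 difference of 0.05 ± 0.16 that was negative in the values as deposited. ENA1, a sodium pump gene, was not analysed here, and the probe set used for ENA5, a close paralog, may also bind RNA of related sodium pump genes.

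Within the same list the array numbers differed in both directions. GSC2, CMK2, RCN2, GYP7 and PLB3, picked out after their values were seen, had both arrays numbered 1 above both numbered 2, as did RCN1. The log2 differences of number 1 minus number 2 were 0.63 for CMK2, 0.58 for RCN2, 0.40 for GYP7, 0.22 for GSC2 and 0.18 for PLB3. SCW10 (-0.14) and GPX2 (-0.19) had both arrays numbered 1 below. So did PMC1 (-0.24) and PMR1 (-0.76), members of the set also induced through Crz1. In the values as deposited, CMK2, RCN2, GPX2, PMC1 and PMR1 kept their order by number. GSC2, GYP7, PLB3, SCW10 and RCN1 then overlapped between the numbers. These genes had no test by number. After quantile normalization 26.4% of all probe sets lay higher and 29.8% lower in this way. No such share is given for the values as deposited.

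Calcineurin substrates and proteins that move Crz1 in or out of the nucleus were measured for 13 genes with a median log2 difference of -0.05 and 0 past the adjusted threshold. The list had 1 gene higher and 2 lower without overlap, shares near those of all probe sets (14% and 18%). HRR25, a casein kinase that phosphorylates Crz1, had signals of 755 and 683 in the mutant and 760 and 1042 in the wild type. Its log2 difference of -0.31 ± 0.20 (SE) lay almost wholly within number 2 (-0.61, against -0.01 within number 1). NMD5, the importin that carries Crz1 into the nucleus, was at -0.28 ± 0.20, here with the larger part within number 1 (-0.54, against -0.02 within number 2). SLM1, whose product binds membrane lipid and calcineurin, was at 0.28 ± 0.20 (0.54 within number 1 and 0.02 within number 2). NMD5 and SLM1 overlapped between the strains in the values as deposited.

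A list of other genes for calcium tolerance and for ion transport in the Golgi and vacuole, a few of which encode no transporter, was measured for 16 genes with a median log2 difference of 0.01, and -0.13 in the values as deposited. None of the 16 passed the adjusted threshold, and 2 were higher and 4 lower without overlap, beside 14% and 18% of all probe sets. After median centring 1 was higher and 2 were lower, beside 13.3% and 15% of all probe sets, and in the values as deposited 1 was higher and 6 were lower, beside 3.4% and 22.3%. SUR1, which encodes a subunit of an enzyme that adds mannose to sphingolipids, had signals of 3874 and 3415 in the mutant, against 2579 and 2407 in the wild type. Both mutant arrays were well above the wild-type arrays under every scaling tried. Its log2 difference of 0.55 ± 0.12 (SE) had a limma unadjusted p of 0.00689 and an adjusted p of 0.861. CSG2, whose product works with Sur1 and is needed for growth in high calcium, was at 0.06 ± 0.08, negative in the values as deposited. GDT1, a Golgi transporter of calcium and manganese, was at -0.12 ± 0.06 and SPF1, a P-type ATPase of the endoplasmic reticulum, at -0.13 ± 0.08, both lower without overlap, though GDT1 overlapped after median centring. PER33, a membrane protein of the endoplasmic reticulum and nuclear envelope, was at -0.14 ± 0.11 and overlapped after median centring. YVC1, the calcium release channel of the vacuole, was at 0.0095 ± 0.14, negative in the values as deposited and after median centring, and ECM7, a regulator of the Mid1 and Cch1 channel, at 0.04 ± 0.12, negative in the values as deposited. FIG1, a gene for calcium entry during mating, had dim signals of 19.0 and 42.2 in the mutant and 34.7 and 29.7 in the wild type.

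The vacuolar ATPase builds the proton gradient that drives Vcx1. Its 17 measured genes had a median log2 difference of -0.04, with 0 past the adjusted threshold, 0 higher without overlap and 5 lower, beside 14% and 18% of all probe sets. The count of lower genes was 1, VPH1, after median centring (15% of all probe sets) and 8 in the values as deposited (22.3%). Values within this list ran from -0.17 for VMA8, a subunit of the catalytic part, to 0.12 for VMA9. VMA8 was at -0.33 within number 1 and -0.0036 within number 2. Genes for folding and processing proteins in the endoplasmic reticulum and Golgi, whose work depends on calcium there, had a median of -0.06 over 12 genes. None passed the adjusted threshold, and 1 was higher and 3 lower without overlap, beside 14% and 18% of all probe sets. There were 0 higher and 2 lower after median centring, beside 13.3% and 15% of all probe sets. In the values as deposited there were 0 higher and 6 lower, beside 3.4% and 22.3%. KEX2, a calcium-dependent protease of the Golgi, was at -0.20 ± 0.15 (SE), and SIL1, a partner of the chaperone Kar2, at 0.08 ± 0.13, negative in the values as deposited.

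**Figure D4:**
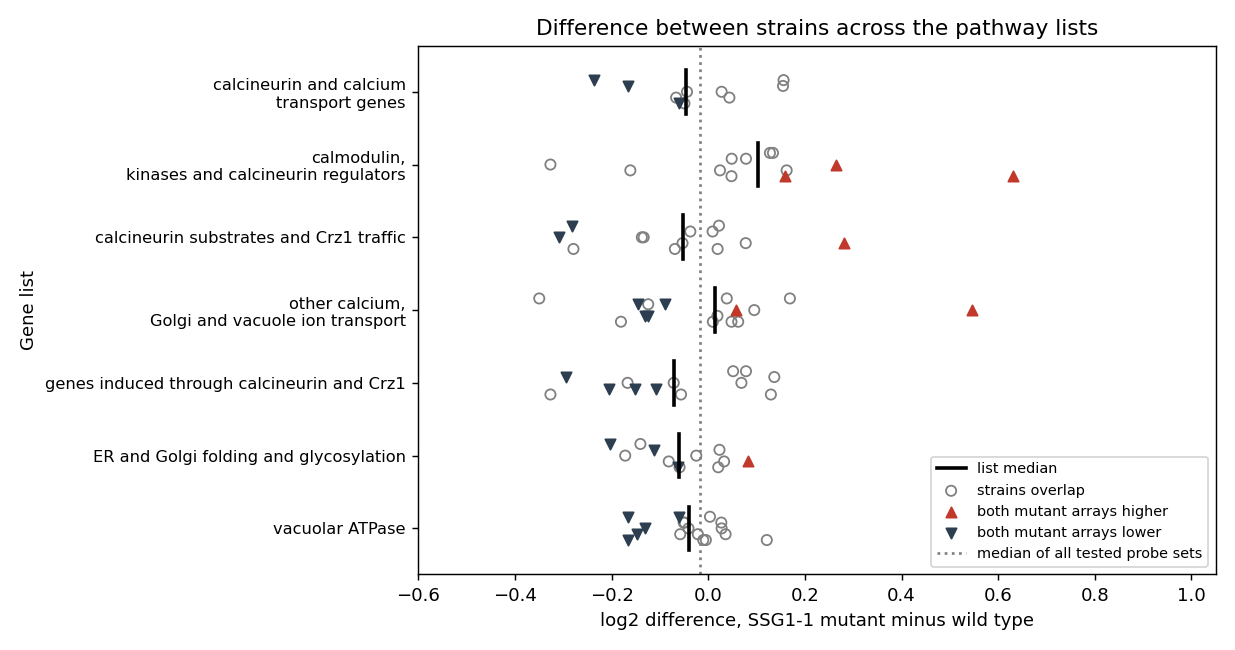
Log2 difference, SSG1-1 mutant minus wild type, of every measured gene in the set and in 6 pathway lists, with red triangles for genes higher on both mutant arrays, dark blue triangles for genes lower on both and open circles for genes whose strains overlapped. Black bars are list medians, between -0.07 and 0.10, and the dotted line is the median of all tested probe sets at -0.02. The points farthest to the right are MRK1 and SUR1.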

How the data were processed

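As deposited, each array has 1 linear signal intensity per probe set. The submitters' processing notes name GCOS, and per the file headers a second table holds detection calls. The sources used here do not state the background correction or the scaling. That table had value columns naming a strain, identical in all 10928 values to replicate 2, so calls came from 1 array per strain and the filter kept probe sets present in at least 1. The other 2 value columns name no sample and were not used. Of 5498 S. cerevisiae probe sets, 122 were removed.

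Trimmed means differed between arrays (1034 and 1168 in the mutant, 1298 and 1122 in the wild type), so log2 signals, floored at 0.1, were quantile-normalized. Strains were compared in R 4.3.3 with limma 3.58.1 (lmFit and eBayes, trend on), 2 arrays against 2, and p-values were adjusted over all 5376 probe sets at a threshold of 0.05. Errors are moderated standard errors. The fit was tested on simulated data whose noise was independent between arrays. That test did not cover deviations shared by same-numbered arrays, or scatter of variance between genes of like signal. Of several probe sets for a gene, the brightest was used. Symbols follow the R64 reference table, with no coordinates because the files name no build. Named outside the set were 12 genes listed in advance, genes past the threshold and the extremes without overlap of each list. CRH1, UTR2, MEP1, RCK2, NMD5 and VMA9 were added after their values were seen. So were GYP7, PLB3, SCW10, GPX2, VPH1, YPK9 and the single mating-type markers named. ENA5 also lay outside this rule. The genes and lists were chosen with earlier results of these data known. Same-numbered arrays deviated together (correlation 0.634 across probe sets), but the meaning of the number is not stated, so the fit had no block. Alternatives covered scaling, filter, offset, trend, block, probe set choice and each array left out. Plots were made in Python 3.11.15 using matplotlib 3.10.9.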

Additional observations from a re-analysis of the deposited data

How the results depend on the processing

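Of 110 values of the 10 genes under 11 alternatives, 94 kept their sign and their side of the threshold, 15 changed sign and 1 passed the threshold. CNB1, CRZ1, CCH1 and VCX1 kept their sign, but not their size. CRZ1 lay at 0.0171 as deposited, 0.0218 without wild-type replicate 1, 0.0450 without mutant replicate 2 and 0.2667 and 0.2899 without mutant replicate 1 and wild-type replicate 2. CCH1 lay at -0.2316 as deposited, -0.0095 without mutant replicate 1 and -0.1128 without mutant replicate 2. CNB1 ranged from -0.3164 (as deposited) to -0.1397 and VCX1 from -0.3327 (as deposited) to -0.1622 (both without wild-type replicate 1). With an array left out, CNA1 ranged up to 0.191, CMP2 to 0.1205 and RCN1 to 0.3722, and MID1 down to -0.4054, PMC1 to -0.2035 and PMR1 to -0.4753. The values as deposited turned CNA1 (-0.1390), CMP2 (-0.1248) and RCN1 (-0.0076). Without wild-type replicate 1, CNA1 was at -0.1359 and CMP2 at -0.0018. Without wild-type replicate 2, RCN1 was at -0.0628, MID1 at 0.2698, PMC1 at 0.0703 and PMR1 at 0.3872. Without mutant replicate 1 they were at -0.0002, 0.3066, 0.0360 and 0.2839, and without mutant replicate 2, CNA1 was at -0.1105 and CMP2 at -0.0332. Across these fits, between 1 and 4 of the 10 genes were higher without overlap and between 3 and 6 lower, and the median of the set lay between -0.1380 and 0.0797. With fewer arrays, separation is easier to reach, and no share of all probe sets is given for these counts.

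Probe sets higher past the adjusted threshold numbered 6 as deposited, 4 with median centring, 0 without the mean-variance trend, and between 2 and 4 with an array left out. As deposited, list medians were -0.1341 for other ion transport, -0.1785 for folding genes and -0.1700 for the vacuolar ATPase. With a replicate block, 427 of the 5376 probe sets were higher and 401 lower. In that fit VCX1 passed (-0.2371, limma adjusted p = 2.39e-05), as the only one of the 10 genes (1 in all). The lists then had 3 calls of 12 genes (calmodulin, kinases and regulators), 2 of 13 (substrates) and 2 of 16 (ion transport). They had 3 of 13 (induced genes), 1 of 12 (folding) and 4 of 17 (vacuolar ATPase). In the blocked fit limma's variances followed the trend line only, without the scatter of a gene's own arrays. With 2 pairs and no label for the number, that pairing was not established. No gene of the set has several probe sets, so averaging them changed none of its signals. Having 2 arrays per strain limits precision, with a median standard error of 0.176 for the set.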

Other observations

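YPK9, a P-type ATPase gene of the vacuole, had the lowest value of the ion transport list. Its signals were 761 and 998 in the mutant and 978 and 1261 in the wild type, so the strains overlapped. The log2 difference was -0.36 within number 1 and -0.34 within number 2, and -0.35 ± 0.21 (SE) over both (limma adjusted p = 0.998). ENA5 had 2 probe sets. The one that may also bind related sodium pump genes was at 0.07 ± 0.12 and the other, dimmer one at -0.13 ± 0.16.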
